A study of Rattus norvegicus with 10 samples.

Results

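Transcripts of the chloride cotransporters and of proteins that regulate them were followed in messenger RNA of the rat hippocampus after traumatic brain injury (TBI). The set held 9 genes chosen by name: the cotransporters Slc12a2, Slc12a4, Slc12a5 and Slc12a7, the kinases Wnk1 and Stk39, the chloride channel gene Clcn2 and the carbonic anhydrases Car2 and Car7. Each row of the count table is a RefSeq RNA record, and the row with the highest mean count stood for each gene. All 9 genes were found, in 11 of 32041 rows, among 16610 named genes. Wnk1 had 3 rows and every other member had 1, and all members passed the filter on low counts.

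The rats were adult male Sprague-Dawley animals of 330 to 371 g at injury, and the 2 groups held 5 TBI and 5 sham-operated rats. Every rat had anaesthesia and a craniectomy of 5 mm over the left parietal lobe, and the TBI rats then had a lateral fluid percussion impact, a pressure pulse onto the intact dura, of 3.32 atm on average. The sham group therefore carries the craniectomy too, and uninjured rats without surgery were not analysed here. Tissue of the left dorsal hippocampus holding CA3 and the dentate gyrus was taken 3 months later, and its polyadenylated RNA was sequenced. Rats are numbered within each group in the order of their records, and a number shared by a sham and a TBI rat does not pair them.

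Chloride transport sets how a neuron answers GABA. NKCC1, the product of Slc12a2, carries chloride into cells with sodium and potassium, whereas the potassium-chloride cotransporters carry it out, and KCC2 from Slc12a5 is the neuronal one. In mature neurons strong KCC2 keeps chloride low, so GABA-A channels let chloride in and hyperpolarise the cell. WNK kinases sense chloride and act through SPAK, the product of Stk39, which activates NKCC1 and inhibits the potassium-chloride cotransporters by phosphorylation. Carbonic anhydrases supply bicarbonate, which also passes through GABA-A channels. A shift from KCC2 towards NKCC1 is a known theme in injured and epileptic tissue, and transport activity depends on phosphorylation, which RNA levels do not show.

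Counts on RNA records ranged from 23425817 to 31671838 per library. Ribosomal RNA rows took 59.0% of counts in sham rat 4 and 58.5% in sham rat 5, and 12.5% to 26.2% in the other 8 rats. By group the share was 23.8% to 59.0% in sham and 12.5% to 25.5% in TBI rats. Counts outside these rows were 12686398 to 22089112 in sham and 21336394 to 24735107 in TBI rats. The share and the usable depth thus went partly with the group, and a fit with the share as a covariate cannot fully separate them from it. Levels are given as CPM, a gene's count relative to the library size after adjustment by the trimmed mean of M values (TMM), which scales libraries by the bulk of the genes. No transcript lengths were used, so levels are compared between rats and not between genes. Cell type lists differed between the groups to unequal degrees. At an unadjusted p under 0.05, which 7.89% of all rows tested reached, 4 of 5 tested ependymal, 4 of 7 meningeal, 3 of 5 CA1, 3 of 9 microglial and 2 of 9 astrocyte markers were higher in TBI, and 4 of 10 markers of GABAergic neurons were lower. In the lists of choroid plexus (10 tested), thalamus (4) and blood (4), 1 marker each was higher, and of 3 CA3 markers 1, Plagl1, was lower, at a log2 difference of -1.11. None of 9 general neuronal, 11 oligodendrocyte, 9 endothelial and 4 dentate granule cell markers passed. CA3 and dentate gyrus markers were detected, the former at 110 to 157 CPM summed in sham and 107 to 146 CPM in TBI rats, the latter at 55.1 to 222 and 88.7 to 201 CPM. CA1 markers summed to 61.4 to 129 CPM in sham and 54.6 to 418 CPM in TBI rats, a wider range in the TBI group. In bulk tissue, fewer cells of a type and less RNA per cell cannot be told apart.

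The main neuronal chloride extruder and the main importer differed little between the groups, while one of the widely expressed potassium-chloride cotransporters was higher in TBI. Slc12a4, which encodes KCC1, averaged 1.33 times the sham level, and the other 8 members lay between 0.88 and 1.11 times. The difference of Slc12a4 had an unadjusted p of 0.00134, and it was the single member of 9 under 0.05 (background 7.89% of 22431 rows tested in either direction, and 4.89% called higher in TBI). No member passed after Benjamini-Hochberg adjustment over all rows in edgeR's quasi-likelihood test, where 0 of all rows (0%) passed and the lowest adjusted p was 0.477. DESeq2, edgeR's exact test and limma voom also left 0 members after adjustment. In 0 of 9 members did the values of the 2 groups stand fully apart (0.923% of all rows did). The members' median log2 difference, TBI minus sham, was -0.0064 with 3 higher and 6 lower, beside -0.0080 over all rows tested.

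**Figure D1:**
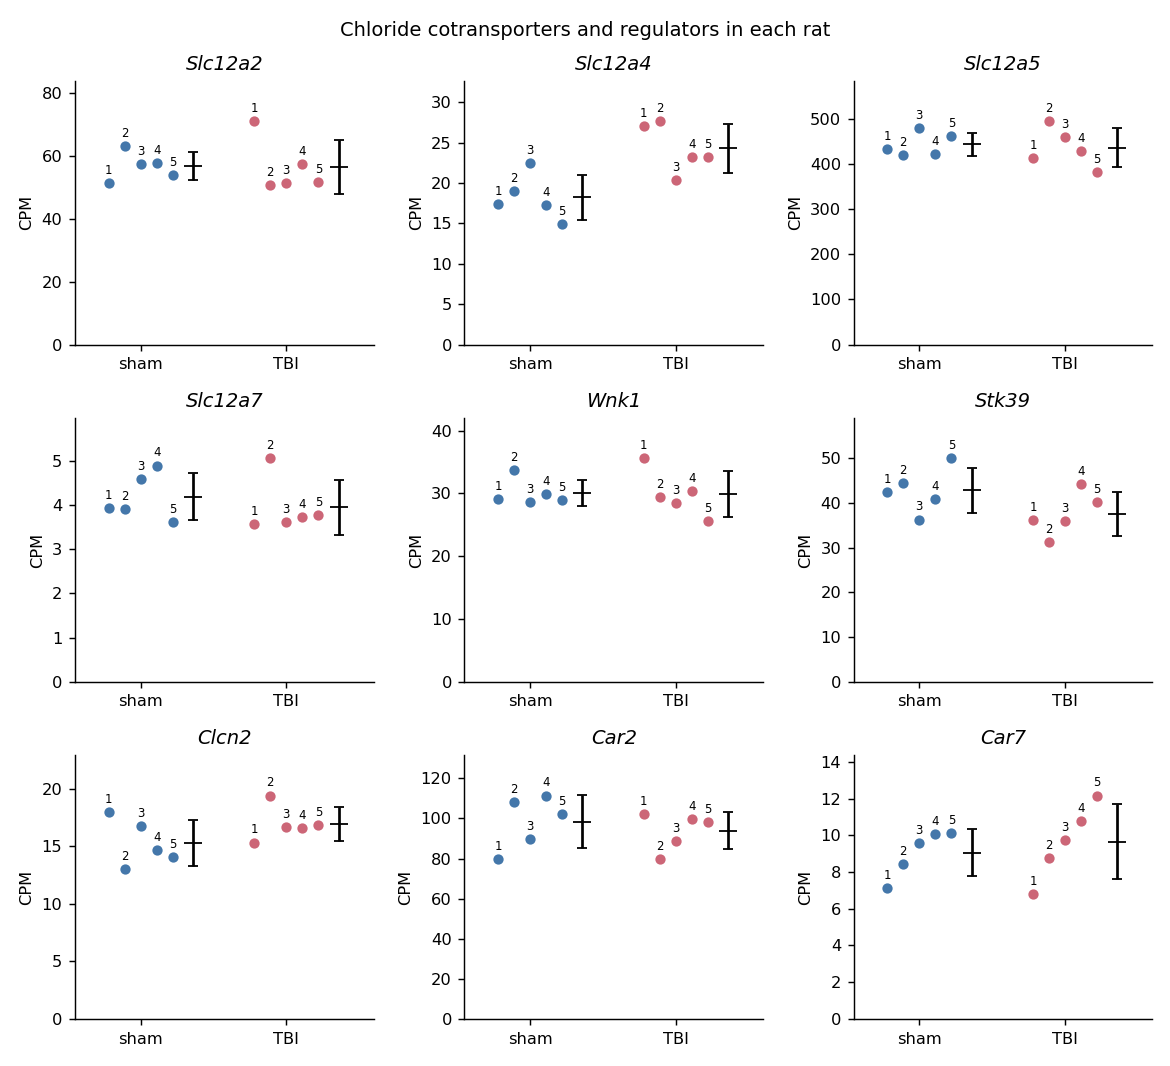
CPM of each of the 9 genes (y axis from 0) in each sham (blue) and TBI (red) rat, numbered within the group, with the mean and SD of the group as a black bar. In the panel of Slc12a4, 4 TBI rats lie above all 5 sham rats, and in every panel the groups overlap.

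Slc12a2 (NKCC1), the chloride importer, stood at 51.3, 63.3, 57.5, 57.8 and 54.1 CPM in sham rats 1 to 5 and at 71.1, 50.9, 51.6, 57.6 and 51.9 CPM in TBI rats 1 to 5. TBI rat 1 was the highest and TBI rat 2 the lowest of all 10, so the TBI group enclosed the sham group. The means were 56.8 ± 4.51 and 56.6 ± 8.55 CPM (SD, n = 5 each), a log2 difference of -0.0050 with a 95% interval from -0.20 to 0.19. That interval corresponds to 0.868 to 1.14 times the sham level. The count behind each value was 850 to 2454 reads. The choroid plexus, which is known to carry much NKCC1, left little RNA here, and its 10 tested markers summed to 8.45 to 39.4 CPM in sham and 14.3 to 38.5 CPM in TBI rats.

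Slc12a5 (KCC2), the neuronal chloride extruder, was read 6223 to 18586 times per library, the deepest coverage of the set. Its level was 434, 421, 479, 423 and 461 CPM in the sham rats and 412, 494, 459, 429 and 382 CPM in the TBI rats. TBI rat 2 was above and TBI rats 1 and 5 below the whole sham group. The means of 444 ± 25.6 and 435 ± 43.1 CPM (SD, n = 5 each) gave a log2 difference of -0.027, SE 0.083, with an interval from -0.20 to 0.15, or 0.870 to 1.11 times. A lowering of Slc12a5 messenger RNA beyond 0.870 times the sham level therefore lay outside the 95% interval. The general neuronal markers, beside which a neuronal transcript can be read, summed to 2933 to 3621 CPM in sham and 2654 to 3353 CPM in TBI rats.

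The balance of the importer to the neuronal extruder was also read within each library, where scaling plays no part. The log2 ratio of Slc12a2 to Slc12a5 counts was -3.08, -2.73, -3.06, -2.87 and -3.09 in the sham rats and -2.53, -3.28, -3.15, -2.90 and -2.88 in the TBI rats. TBI rat 1 had the highest and TBI rat 2 the lowest ratio of all. The group means were -2.97 ± 0.159 and -2.95 ± 0.287 (SD, n = 5 each), and the difference of 0.017 had a two-sided exact permutation p of 0.960, where 0.00794 was the smallest p possible. The sign of this difference turned when single rats were left out, within -0.087 to 0.10.

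Slc12a4 (KCC1), a potassium-chloride cotransporter found in many cell types and tied to cell volume, measured 17.4, 19.0, 22.4, 17.3 and 14.9 CPM in sham rats 1 to 5 and 27.0, 27.6, 20.3, 23.2 and 23.3 CPM in TBI rats 1 to 5. TBI rats 1, 2, 4 and 5 exceeded every sham rat, and TBI rat 3 lay below sham rat 3. The means were 18.2 ± 2.76 and 24.3 ± 3.04 CPM (SD, n = 5 each), a log2 difference of 0.41, SE 0.11, with an interval from 0.18 to 0.63 (fold 1.13 to 1.55). Its unadjusted p of 0.00134 was the 57th lowest of 22431 rows, and the adjusted p was 0.478. Reads per library numbered 239 to 1039.

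The direction of Slc12a4 held, with an unadjusted p under 0.05, in all 10 fits that left out 1 rat, at log2 differences from 0.34 to 0.49, and in each of 10 other ways of fitting. The values nearest to 0 came with the ribosomal RNA share as a covariate, at 0.28 with an unadjusted p of 0.0465, and without sham rats 4 and 5, at 0.31 with an unadjusted p of 0.0175. Sham rats 4 and 5, with the highest ribosomal RNA shares, were the lowest of all 10 rats for Slc12a4, at 17.3 and 14.9 CPM. Sham rat 1 was next at 17.4 CPM. The adjusted p ranged from 0.0703, without sham rat 3, to 0.974, with the covariate, and did not pass in any fit here. The study's own list of genes altered after TBI does hold this record of Slc12a4, as higher and with an adjusted p under 0.05. Its methods give fewer control rats for that comparison than the 5 used here, and do not say which. Its results, however, count more control samples over all models than its methods list, so the number is not settled here. The methods also describe a negative binomial model of edgeR with shrinkage and do not name the quasi-likelihood test. In edgeR's exact test here, Slc12a4 had an unadjusted p of 0.000509 and an adjusted p of 0.150. The part of either difference was not tested. Cell type lists that were higher in TBI stood beside Slc12a4. The astrocyte markers summed to 1865 to 2700 CPM in sham and 2023 to 3577 CPM in TBI rats. The microglial ones summed to 191 to 300 and 231 to 319 CPM, and the ependymal ones to 12.2 to 22.9 and 21.3 to 35.3 CPM. The meningeal ones summed to 9.50 to 23.6 and 17.3 to 27.6 CPM, and the CA1 ones to 61.4 to 129 and 54.6 to 418 CPM. None of these markers was at 0 in every library. Their part in the difference of Slc12a4 was not tested.

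**Figure D2:**
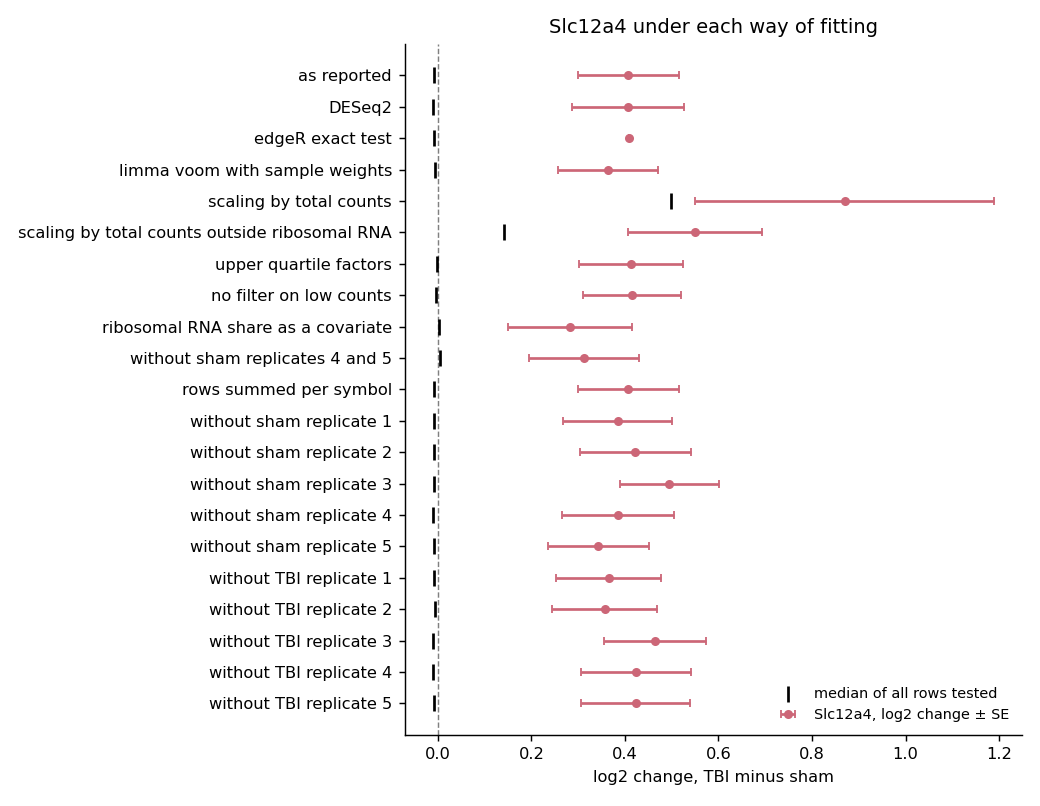
Log2 difference of Slc12a4, TBI minus sham (x axis), as reported, under 10 alternative ways of fitting and with each rat left out (y axis), as red points with the SE where the test gives one, beside the median of all rows tested as black ticks. Every point lies above the tick of its own fit, and total-count scaling moves both, to 0.87 and 0.50.

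Slc12a7 (KCC4), a further potassium-chloride cotransporter, was read 58 to 190 times per library. It stood at 3.93, 3.92, 4.58, 4.89 and 3.62 CPM in the sham rats and at 3.57, 5.05, 3.61, 3.73 and 3.78 CPM in the TBI rats. TBI rat 2 was the highest of all 10, and the other 4 TBI rats lay within a range of 3.57 to 3.78 CPM. The means of 4.19 ± 0.527 and 3.95 ± 0.625 CPM (SD, n = 5 each) gave a log2 difference of -0.080 with an interval from -0.36 to 0.20.

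Slc12a4 was also set against 2 relatives within each library. The log2 ratio of Slc12a4 to Slc12a5 ran from -4.95 to -4.42 in sham and from -4.49 to -3.93 in TBI rats, with 4 of 5 TBI rats above all sham rats. The ratio to Slc12a7 ran from 1.82 to 2.29 in sham and from 2.45 to 2.92 in TBI rats, with 5 of 5 above. Here TBI rat 3, at 2.49, was above too, and TBI rat 2, highest for Slc12a4 itself, was lowest of its group at 2.45. The levels of Slc12a7 thus enter this separation. The mean differences were 0.45 and 0.51 on the log2 scale. These ratios were picked after the values of Slc12a4 had been seen and carry no test, and how often other pairs of genes stand apart was not examined.

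**Figure D3:**
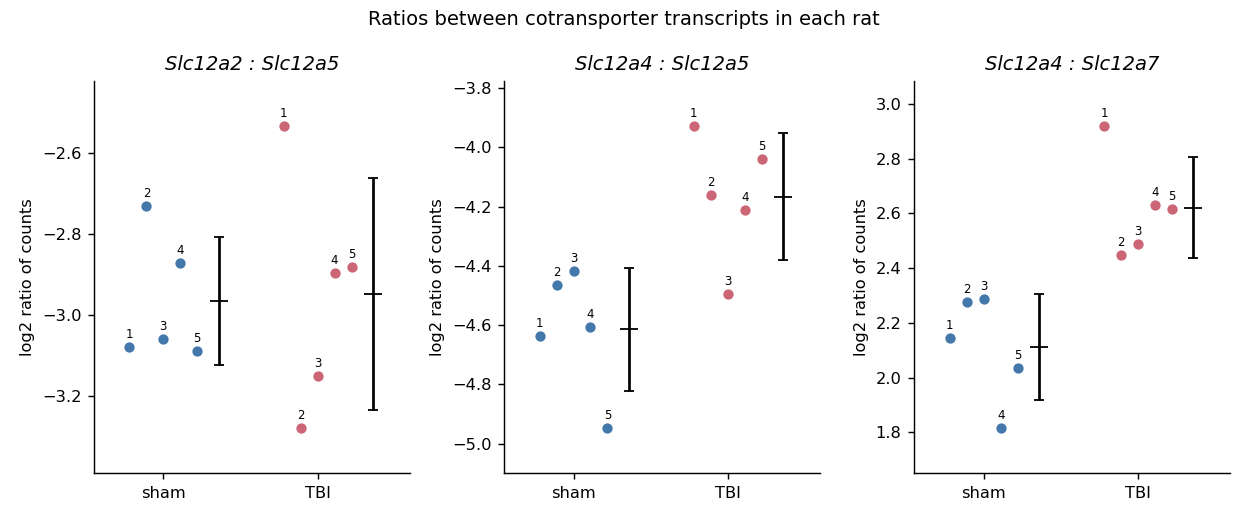
Log2 ratio of counts (y axis) of Slc12a2 to Slc12a5, Slc12a4 to Slc12a5 and Slc12a4 to Slc12a7 in each sham (blue) and TBI (red) rat, numbered within the group, with the group mean and SD as a black bar. The groups overlap in the first ratio, with means of -2.97 and -2.95, and stand apart in the third.

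Wnk1, the chloride-sensing kinase at the head of the cascade, stood at 29.0, 33.7, 28.6, 29.8 and 28.9 CPM in the sham rats and at 35.6, 29.5, 28.4, 30.4 and 25.6 CPM in the TBI rats. TBI rat 1 was the highest and TBI rat 5 the lowest of all. The log2 difference was -0.0064, SE 0.088, with an interval from -0.19 to 0.18. The other rows of Wnk1 gave -0.088 and -0.0089. In each rat their counts were 0.882 to 1.08 times those of the first row. Records of 1 gene may share reads, and how such reads were counted is not known here, so the 3 rows are not read as separate isoforms.

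Stk39 encodes SPAK, the kinase that acts on the cotransporters themselves. It measured 42.4, 44.3, 36.3, 40.9 and 49.9 CPM in the sham rats and 36.1, 31.2, 36.0, 44.2 and 40.2 CPM in the TBI rats. TBI rats 1, 2 and 3 lay below every sham rat, and TBI rats 4 and 5 lay within the sham range. The means of 42.8 ± 4.99 and 37.5 ± 4.88 CPM (SD, n = 5 each) gave a log2 difference of -0.19, SE 0.098, with an interval from -0.39 to 0.019, an unadjusted p of 0.0733 and an adjusted p of 0.679. The unadjusted p was 0.0260 without sham rat 3 and 0.0211 without TBI rat 4, and up to 0.208 with other rats left out. Under scaling by total counts, the sign was positive, at 0.33, where the median of all rows was 0.50.

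Clcn2 encodes ClC-2, an inwardly rectifying chloride channel of neurons and glia. It stood at 17.9, 13.0, 16.8, 14.7 and 14.1 CPM in the sham rats and at 15.3, 19.4, 16.7, 16.6 and 16.8 CPM in the TBI rats. TBI rat 2 alone was above the sham range, and no TBI rat was below it. The means were 15.3 ± 2.03 and 17.0 ± 1.49 CPM (SD, n = 5 each), a log2 difference of 0.15 with an interval from -0.064 to 0.35 and an unadjusted p of 0.162.

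Car2, a cytosolic carbonic anhydrase abundant in oligodendrocytes, measured 79.9, 108, 89.6, 111 and 102 CPM in the sham rats and 102, 79.9, 89.0, 99.9 and 98.0 CPM in the TBI rats. Sham rat 1 and TBI rat 2 were lowest and nearly level, and the TBI group lay almost wholly within the sham range. The log2 difference was -0.065 with an interval from -0.27 to 0.14. Car7, a cytosolic isoform of neurons, stood at 7.12, 8.44, 9.58, 10.1 and 10.1 CPM in the sham rats and at 6.81, 8.75, 9.74, 10.8 and 12.2 CPM in the TBI rats. TBI rats 4 and 5 were above and TBI rat 1 below all sham rats. Its log2 difference of 0.10 had an interval from -0.19 to 0.40, the widest of the set, and its coefficient of variation in TBI rats, 21.0%, was the highest of the 9 genes.

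**Figure D4:**
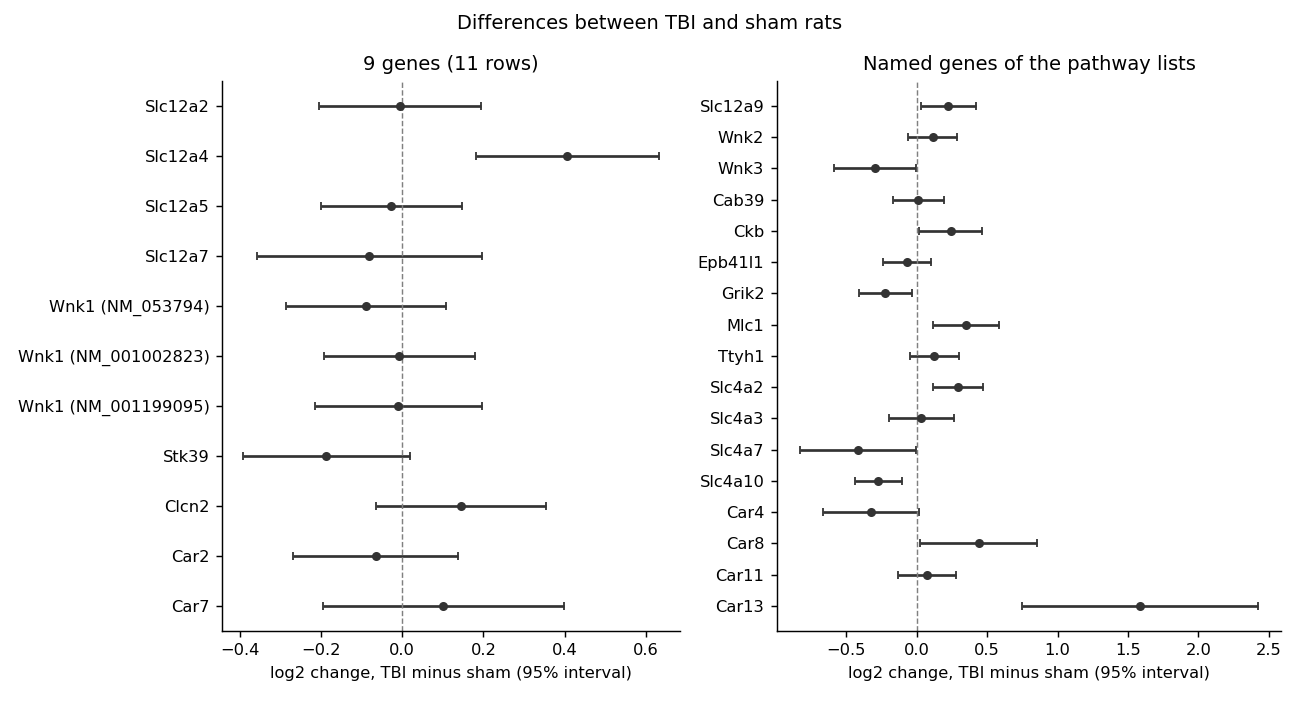
Log2 differences, TBI minus sham (x axes, each panel with its own scale), with 95% intervals for the 11 rows of the 9 genes at left and the named genes of the pathway lists at right. At left the interval of Slc12a4, 0.18 to 0.63, is the one that leaves out 0, and at right the widest is that of Car13.

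The spread among TBI rats was not even across the set. TBI rat 2 was highest of its group for 4 genes (Slc12a4, Slc12a5, Slc12a7 and Clcn2) and lowest for 3 (Slc12a2, Stk39 and Car2). TBI rat 1 was highest for 3 genes (Slc12a2, Wnk1 and Car2) and lowest for 3 (Slc12a7, Clcn2 and Car7). These 2 rats also had the highest CA1 marker scores, 1.44 and 0.92 as mean centred log2 CPM, where the sham rats ran from -1.14 to 0.12. They stood at opposite ends for oligodendrocyte markers among TBI rats with the lowest and second highest score, -0.25 and 0.15. The part of these scores in the spread of the members was not tested.

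Some members are known from one cell type, and 5 pairs of a member and a marker score were compared across the 10 rats. Car2 went with the oligodendrocyte markers (Pearson r = 0.910, permutation p = 0.000370, adjusted over the 5 pairs 0.00185). Spearman's rho was 0.794 (permutation p = 0.00878, adjusted 0.0219), and r was 0.754 without sham rat 1 and TBI rat 2, the rats farthest from the median score. It was 0.935 after each group's mean was subtracted and 0.965 without sham rats 4 and 5. Car2 thus varied between rats with the oligodendrocyte markers, whose summed level overlapped between sham (2673 to 3850 CPM) and TBI rats (2759 to 3685 CPM).

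Slc12a2 also went with the oligodendrocyte markers, by rank more than linearly. Its r was 0.658 (permutation p = 0.0378, adjusted 0.0945) and its rho 0.830 (permutation p = 0.00461, adjusted 0.0219), and r was 0.598 without the same pair of rats and 0.711 without sham rats 4 and 5. The unadjusted p of r exceeded 0.05 when sham rat 1, sham rat 2, TBI rat 2 or TBI rat 3 was left out, with values up to 0.0934. With the choroid plexus markers r of Slc12a2 was 0.041 (permutation p = 0.910, adjusted 0.910) and rho 0.079 (permutation p = 0.838, adjusted 0.838), and r was 0.037 without sham rats 3 and 4.

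Slc12a5 against the general neuronal markers gave r = -0.30 (permutation p = 0.400, adjusted 0.50) and rho = -0.12 (permutation p = 0.759, adjusted 0.838), with r = -0.66 without sham rat 1 and TBI rat 1. Clcn2 against the astrocyte markers gave r = 0.548 (permutation p = 0.103, adjusted 0.171) and rho = 0.600 (permutation p = 0.0740, adjusted 0.123), with r = 0.656 without TBI rats 1 and 2, and 0.385 without sham rats 4 and 5. All points of a pair share their library, so depth and composition enter both axes.

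**Figure D5:**
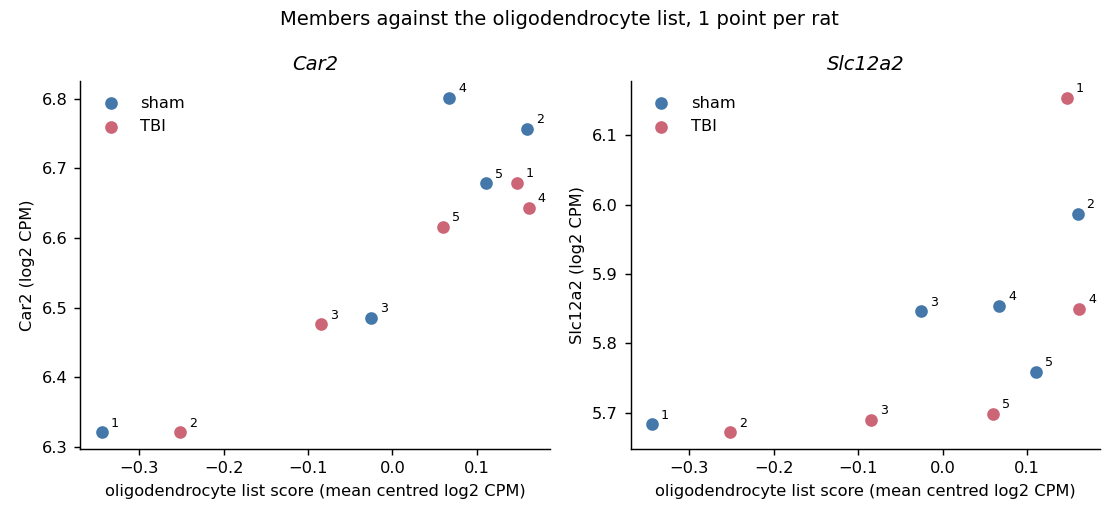
Log2 CPM of Car2 (left) and Slc12a2 (right) against the oligodendrocyte marker score (mean centred log2 CPM over 11 markers), 1 point per rat, sham in blue and TBI in red, numbered within the group. Sham rat 1 and TBI rat 2 have the lowest scores and near the lowest levels of both genes, and TBI rat 1 lies above the rest for Slc12a2.

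The patterns most like those of the importer and the extruder were sought among 8278 symbols with a mean of at least 5 CPM, by Pearson r over the 10 rats after the group means were subtracted. For Slc12a5 these were Slc39a11 (r = 0.944), Ext2 (0.940) and Zfp316 (0.924), where the median symbol had -0.016. For Slc12a2 they were Ythdf3 (0.951), Clasp2 (0.930) and Marchf7 (0.927), where the median was -0.038. The highest of 8278 values is high by selection, and no test was attached.

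Around the 9 genes, 6 lists of pathway genes held 71 names, of which 62 were matched and 58 tested. At an unadjusted p under 0.05, 6 were higher and 4 lower in TBI, or 17.2% of those tested beside 7.89% of all rows, and 0 passed adjustment in edgeR, DESeq2, the exact test or limma voom. The lists were chosen with earlier results of these data known, and they use 1 row per gene where the background holds every row tested. The 2 shares are therefore given as a description and not as a test. The count of pathway genes called was 5 without sham rat 2 and 6 without TBI rat 5, where 5.17% and 6.51% of all rows were called. The split depended on scaling: by total counts, or by those outside ribosomal RNA, 12 were called higher and 0 lower, where the median of all rows lay at 0.50 and 0.14. Of all rows, 3762 were called higher and 26 lower by total counts, and 2798 and 104 by those outside ribosomal RNA. With the ribosomal RNA share as a covariate 2 pathway genes were higher and 5 lower, beside 549 and 443 of all rows. Without sham rats 4 and 5 it was 3 and 5, beside 741 and 515 of all rows. Of the 10 genes, Mlc1, Slc4a2, Slc4a10 and Car13 kept an unadjusted p under 0.05 whichever rat was left out, and each of the other 6 (Slc12a9, Wnk3, Ckb, Grik2, Slc4a7 and Car8) lost it in at least 3 of the 10 such fits. With the ribosomal RNA covariate, Slc12a9, Wnk3, Ckb, Mlc1 and Car8 no longer had an unadjusted p under 0.05. Without sham rats 4 and 5, Slc12a9, Ckb and Car8 did not have it. The median log2 difference of the 58 genes was 0.0083, beside -0.0080 over all rows.

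Among the other cotransporters of the family, 1 of 4 tested passed the unadjusted threshold. Slc12a9, a family member without a settled transport role, was 17.9 ± 2.51 CPM in sham and 21.0 ± 0.838 CPM in TBI rats (SD, n = 5 each), a log2 difference of 0.22 with an adjusted p of 0.582. With the ribosomal RNA share as a covariate it was 0.12 with an unadjusted p of 0.314. Without sham rats 4 and 5 it was 0.15 with an unadjusted p of 0.165. Slc12a1, the kidney NKCC2, did not pass the filter.

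Of 8 tested genes of the WNK and SPAK cascade, 1 was called lower. Wnk3, a neuronal WNK kinase, ran from 3.56 to 4.78 CPM in sham and 2.82 to 4.23 CPM in TBI rats, at a log2 difference of -0.30 (adjusted p of 0.626). Wnk2, at 115 ± 11.0 and 125 ± 10.8 CPM, and Cab39, the scaffold that activates SPAK, at 86.1 ± 8.05 and 86.8 ± 8.87 CPM (SD, n = 5 each), differed by 0.11 and 0.011 on the log2 scale, with adjusted p of 0.784 and 0.989.

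Of 5 partner proteins of KCC2, 1 was called higher and 1 lower. Ckb, the brain creatine kinase, stood at 948 ± 146 CPM in sham and 1121 ± 123 CPM in TBI rats (log2 difference 0.24, adjusted p of 0.614). Grik2, a kainate receptor subunit, stood at 17.9 ± 1.65 and 15.4 ± 1.36 CPM (log2 difference -0.22, adjusted p of 0.577). Epb41l1, the cytoskeletal protein 4.1N, differed by -0.066 on the log2 scale (adjusted p of 0.887).

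Of 19 tested chloride channels and partners, 1 was called higher. Mlc1, an astrocyte membrane protein that works with volume-regulated and ClC-2 channels, measured 239, 253, 322, 261 and 233 CPM in the sham rats and 386, 377, 260, 304 and 342 CPM in the TBI rats. TBI rats 1, 2 and 5 exceeded all sham rats, with a log2 difference of 0.35, SE 0.11, an unadjusted p of 0.00553 and an adjusted p of 0.487. With the ribosomal RNA share as a covariate it was 0.28 with an unadjusted p of 0.0666. Of the 9 astrocyte markers, Gfap and Aldh1l1 were called higher beside it, at log2 differences of 0.82 and 0.23, the median of the list was 0.17, and Slc1a2, Slc1a3 and Gjb6 differed by 0.064, -0.00094 and -0.00088. Their part in the difference of Mlc1 was not tested. Ttyh1, an astrocyte-rich member of the tweety family, differed by 0.13 on the log2 scale (adjusted p of 0.746).

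Bicarbonate and proton transporters went both ways, with 1 of 11 called higher and 2 lower. Slc4a10, a sodium-driven bicarbonate transporter of neurons, measured 59.5, 58.8, 56.5, 54.0 and 53.7 CPM in the sham rats and 51.4, 48.2, 46.3, 48.5 and 39.8 CPM in the TBI rats. All TBI rats lay below all sham rats, at a log2 difference of -0.27, SE 0.078, an unadjusted p of 0.00263 and an adjusted p of 0.483. Its sign turned under scaling by total counts, to 0.21, below the median of all rows at 0.50. Slc4a2, the anion exchanger AE2 that swaps chloride for bicarbonate, measured 21.4, 21.7, 25.5, 23.3 and 20.9 CPM in the sham rats and 30.1, 28.8, 23.9, 27.7 and 27.9 CPM in the TBI rats. As for Slc12a4, TBI rat 3 fell short of sham rat 3 and the other 4 TBI rats exceeded all sham rats, at a log2 difference of 0.30, SE 0.084, an unadjusted p of 0.00246 and an adjusted p of 0.483. Slc4a7, a sodium bicarbonate cotransporter whose main row was read 26 to 77 times per library, stood at 2.08 ± 0.254 and 1.57 ± 0.471 CPM (SD, n = 5 each), a log2 difference of -0.42 with an adjusted p of 0.628. With the rows of each gene summed, Slc4a7 differed by -0.31 with an unadjusted p of 0.0632, so its call rests on the main row. Slc4a3, an anion exchanger of neurons, differed by 0.034 on the log2 scale, with an adjusted p of 0.967.

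Of 11 tested carbonic anhydrases outside the set, 2 were called higher. Car13, a cytosolic isoform, was read 2, 2, 4, 3 and 2 times in the sham rats and 14, 15, 7, 9 and 14 times in the TBI rats, and its levels of 0.062 to 0.20 CPM and 0.21 to 0.41 CPM did not overlap (log2 difference 1.59, SE 0.40, unadjusted p of 0.000841, adjusted p of 0.477). Sham counts this low give the size of the difference little precision. Car13 and Slc4a10 were the 2 of the 58 pathway genes whose groups did not overlap (0.923% of all rows). Car8, a carbonic anhydrase relative without enzyme activity, stood at 2.33 ± 0.697 and 3.22 ± 0.685 CPM (SD, n = 5 each), a log2 difference of 0.44 with an adjusted p of 0.619. Car4, a membrane isoform, and Car11, another inactive relative, differed by -0.32 and 0.074 on the log2 scale, with adjusted p of 0.645 and 0.896.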

How the data were processed

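Poly-A RNA of 10 rats was sequenced as single reads of 36 bases. The authors aligned reads to the rat genome rn4 with BWA (per the labels) and deposited raw read counts per transcript record, 1 column per rat. The methods of the study name Ensembl transcripts whereas the rows are RefSeq RNA records, which was not settled here. The 2 rows that name no gene were left out; unmapped reads were 12.8% to 26.1% of all. Records were named with the RefSeq gene table (GRCr8, names only), which named 54.2% of rows.

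The filter kept 22431 rows whose counts summed to 44 or more over the rats, the 30th percentile of these sums. TMM factors and the robust quasi-likelihood test of edgeR 4.0.16 (R 4.3.3) were applied to all 10 rats, with Benjamini-Hochberg adjustment over all rows. SEs were derived from the F statistic. Ratios used counts plus 0.5. Correlations used log2 CPM with a prior count of 2 and 100000 resamples. Alternatives were DESeq2 1.42.0, the edgeR exact test, limma 3.58.1 voom with sample weights, other scalings, no filter, a ribosomal RNA covariate, rows summed per gene and leaving out rats. The scripts were tested on simulated data. Counts per library and the spread between rats both enter the precision, and the p-values of group tests set a group difference against that spread.

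Named genes were all 9 members with their further rows, pathway genes with an unadjusted p under 0.05, the 2 pathway genes of each list with the highest mean CPM, and the 3 symbols most like Slc12a5 and Slc12a2. Some genes that this rule names are not reported here. The members and lists were chosen with earlier results of these data known.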

Additional observations from a re-analysis of the deposited data

Results flagged for a closer look

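In each group of 5 rats the gap between the most extreme rat and its neighbour was set against the range of the group, for 58 groups of values, and 2 stood out, where chance alone would give about 2.9. Slc12a7 was 5.05 CPM in TBI rat 2 and 3.57 to 3.78 CPM in the other TBI rats. The main row of Wnk1 was 33.7 CPM in sham rat 2 and 28.6 to 29.8 CPM in the other sham rats.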

How the results depend on the processing

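Slc12a4 kept its direction and an unadjusted p under 0.05 in all 10 leave-one-out fits and all 10 other alternatives, and 0 members passed adjustment in any of them. Of 90 member values under the other alternatives, 68 kept direction and side of the threshold, 3 gained an unadjusted p under 0.05 and 19 turned sign. Scaling by total counts moved the median of all rows to 0.50 and called 3 members (Slc12a4, Clcn2 at 0.64 and Car7 at 0.65), beside 16.9% of all rows. It turned Slc12a2 to 0.48, Slc12a5 to 0.47, Slc12a7 to 0.44, Wnk1 to 0.48, Stk39 to 0.33 and Car2 to 0.47, values near or under that shift. In this fit 1 pathway gene (Car13) was among 92 rows that passed adjustment. Scaling by counts outside ribosomal RNA moved the median to 0.14 and called 2 members (Slc12a4 and Clcn2, at 0.29), beside 12.9% of all rows. It turned Slc12a2 to 0.15, Slc12a5 to 0.13, Slc12a7 to 0.069, Wnk1 to 0.14 and Car2 to 0.098. Values near 0 turned under upper quartile factors (Slc12a2 0.0023, Wnk1 0.00063), without the filter (0.0031 and 0.0017) and with the ribosomal RNA covariate (0.017 and 0.0067, Car2 0.054), and Car2 was 0.026 without sham rats 4 and 5. The cause of these turns was not tested.

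With single rats left out, members under an unadjusted p of 0.05 numbered 1 to 2 and pathway genes 5 to 12, beside 5.17% to 11.4% of all rows. Log2 differences ran from -0.10 to 0.038 for Slc12a2, -0.077 to 0.017 for Slc12a5 and -0.077 to 0.045 for Wnk1, and that of the Slc12a2 to Slc12a5 ratio from -0.087 to 0.0996. The r of Slc12a2 with oligodendrocyte markers ran from 0.601 to 0.722, and with choroid plexus markers from -0.027 to 0.12, being -0.053 without sham rats 4 and 5. The r of Clcn2 with astrocyte markers ran from 0.352 to 0.779, with p under 0.05 without sham rat 1 or TBI rat 1. No paired analysis was possible because the numbers of the rats only follow the order of records. Among the named pathway genes, total-count scaling turned Car4 to 0.16, Epb41l1 to 0.46, Grik2 to 0.25, Slc4a10 to 0.21, Slc4a7 to 0.066 and Wnk3 to 0.18, and scaling outside ribosomal RNA turned Epb41l1 to 0.094. Slc4a3 was -0.071 once the ribosomal RNA covariate was added and -0.035 when sham rats 4 and 5 were left out. With single rats left out, Cab39 ran from -0.041 to 0.064 and Slc4a3 from -0.039 to 0.10. The pathway values were added after the data had been seen. Depth limits Slc12a7 most among the members, with 58 to 190 reads per library, and among the named pathway genes Car13, with 2 to 15, then Slc4a7, with 26 to 77.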
